A study of Arabidopsis thaliana with 8 samples.

Results

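Plant cells send proteins to the cell surface, the cell plate and the vacuole in membrane vesicles. The exocyst, a complex of SEC and EXO proteins, tethers secretory vesicles to the plasma membrane, SNARE proteins and the Sec1/Munc18 proteins that bind them carry out fusion, and the ESCRT complexes, built largely from VPS proteins, sort ubiquitinated membrane proteins into the inner vesicles of multivesicular bodies on their way to the vacuole. Vacuolar proteases and autophagy take part in leaf senescence and developmental cell death, so delivery to the vacuole belongs to the machinery those processes draw on.

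The genes described here are those whose symbol in the platform's probe table starts with SEC, VPS, EXO, VAMP, SYP or VTI followed by a digit, on a probe set with exactly 1 symbol. The rule found 19 genes of 13350 distinct symbols, 9 named SEC or EXO and 10 named VPS, each with 1 probe set. It found no SYP, VTI or VAMP gene, so the SNARE class was empty, and SEC22, a SNARE of transport between endoplasmic reticulum and Golgi, stands among the SEC genes. By function the 19 are 7 exocyst genes (SEC5A, SEC5B, SEC6, SEC10, SEC15A, SEC15B and EXO84B), the Sec1/Munc18 gene SEC1B, SEC22, the ESCRT-II gene VPS22, 8 genes of ESCRT-III or related to it (VPS2.1, VPS2.2, VPS20.1, VPS24.1, VPS24.2, VPS46.2, VPS60.1 and VPS60.2), and VPS9B, which is related to exchange factors of endosomal Rab GTPases. The rule's name for the SEC and EXO class mentions coats, but none of its 9 genes encodes a coat subunit. A further probe set, shared by 2 genes that both match the rule, was left out.

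Transcripts of Arabidopsis thaliana, ecotype Col-0, were measured on 8 Affymetrix arrays, 2 per group, to find genes that respond early to ORE1, a NAC transcription factor that promotes leaf senescence. Mesophyll protoplasts from 5-week-old plants were sampled 6 h into transient expression of 35S:ORE1, in which the constitutive 35S promoter drives ORE1, and were set against protoplasts labelled WT, for which neither a time nor a mock transfection is given in the sources used here. Whole 2-week-old ORE1-IOE seedlings, in which estradiol induces ORE1, were kept for 2 h with 10 µM estradiol in liquid medium and set against ORE1-IOE seedlings given 0.1% ethanol as mock treatment, so both seedling groups carry the inducible construct. The labels do not say whether replicates are separate plants or preparations, so p-values measure the spread between these arrays, which may be technical.

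Values are log2 expression per probe set. Array medians were 3.35 to 3.54 in protoplasts and 6.71 to 6.79 in seedlings, and in protoplasts 39.9% to 41.6% of the values were at most 0.1 above the lowest of their array, whereas in seedlings 0.02% to 0.05% were. Protoplast and seedling levels are thus on different scales and were not set against each other. Of the green tissue markers, RCA read 8.86 and 9.09 with 35S:ORE1 and 9.39 and 9.41 in WT. On the 4 protoplast arrays LHCB4.1 read 7.75 to 8.16, but LHCB4.2 read only 3.32 to 4.44 and PSAN 2.2 to 4.0. LHCB4.3 gave no signal above the array's lowest value (within 0.1) on any of the 4 protoplast arrays. The guard and myrosin cell marker FAMA and the root hair markers EXPA7 and EXPA18 lay there too, and all 3 read between 5.08 and 7.17 in seedlings.

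In protoplasts 5 of the 19 genes gave little or no signal, and 4 of the 5 have a close relative among the 19 that was clearly measured. VPS2.2 and VPS24.2 lay within 0.1 of the lowest value on all 4 protoplast arrays, at 2.18 to 2.19, and their relatives VPS2.1 and VPS24.1 read 10.63 to 10.87 and 9.28 to 9.84. SEC5B read 2.55 to 2.73 and SEC15A 2.33 to 2.73 in protoplasts, where SEC5A read 7.75 to 8.08 and SEC15B 7.68 to 8.23. VPS9B, the fifth, read 2.19 to 2.29. No difference in level between 2 genes is drawn from these values, because each probe set has its own response.

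The same 5 genes had the lowest of the members' seedling values, with SEC5B at 4.71 to 5.01, VPS24.2 at means of 4.27 with estradiol and 4.09 with mock treatment, SEC15A at 5.54 to 6.23, VPS2.2 at 5.25 to 6.24 and VPS9B at 5.72 to 6.11. Only probe sets with values of log2 5 or more on 2 or more arrays were tested. SEC5B and VPS24.2 did not, which left 17 tested members, and SEC15A, VPS2.2 and VPS9B passed through their seedling arrays alone. The other 14 read between 6.26 and 10.87 in protoplasts and between 7.37 and 10.34 in seedlings. The plot of the members' values by array shows these 2 sets of genes apart in the protoplast panel.

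**Figure D1:**
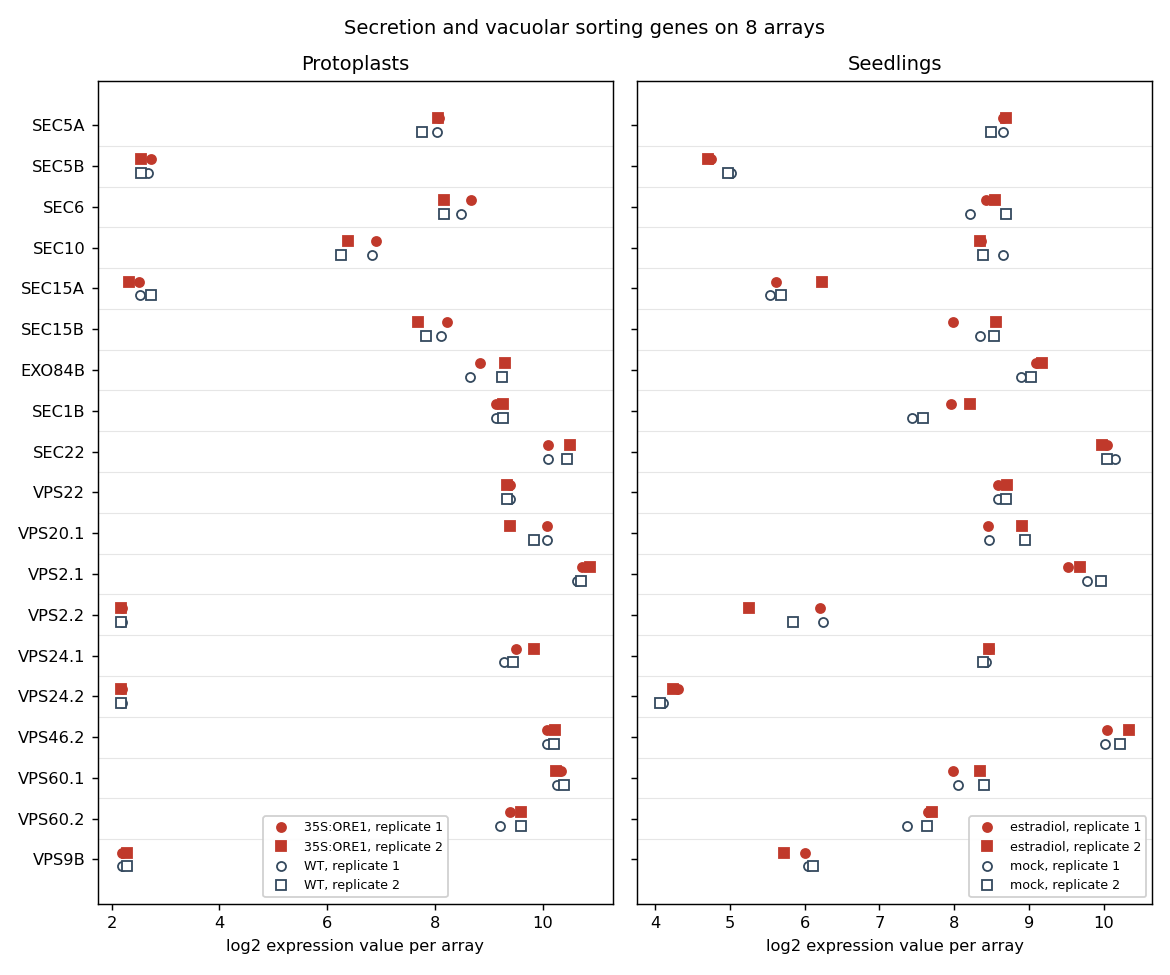
Log2 expression value (horizontal axis) of each of the 19 genes on each array, in protoplasts (left) and seedlings (right). Filled red symbols are 35S:ORE1 or estradiol arrays, open symbols WT or mock arrays, circles replicate 1 and squares replicate 2. SEC5B, SEC15A, VPS2.2, VPS24.2 and VPS9B lie at 2.18 to 2.73 in protoplasts, and the largest gap between groups is that of SEC1B in seedlings.

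With 35S:ORE1 in protoplasts, none of the 17 tested secretion and vacuolar sorting genes passed the test in either direction (limma, Benjamini-Hochberg adjusted p under 0.05 over 17388 tested probe sets, n = 2 arrays per group). Of all tested probe sets 3.77% passed. At an unadjusted p under 0.05 the members' count was also 0, where 12.2% of all tested probe sets lay under it. Both counts include SEC15A, VPS2.2 and VPS9B, which passed the filter through their seedling arrays alone. Of the 14 members measured in protoplasts none passed. Of the 10136 probe sets at log2 5 or more on 2 protoplast arrays 6.02% did. Under an unadjusted p of 0.05 lay 0 of these 14 members and 1978 of these 10136 probe sets (limma). The median change of the 17 was 0.01 on the log2 scale, against 0.00 for all tested probe sets, with 10 genes of higher mean, 4 of lower mean and 3 with equal means. Without SEC15A, VPS2.2 and VPS9B, which lie near the bottom of the protoplast scale, the 14 others had a median of 0.07 and 10 of them, 71.4%, a higher mean, where the 10136 probe sets at log2 5 or more on 2 protoplast arrays had a median of -0.015 and 41.6% a higher mean. These shares are descriptions and turn with the centring given further on.

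The intervals give the size of change that these arrays leave possible. The 95% intervals of the 17 protoplast changes (limma, unadjusted) reached from -0.95 to 0.76, so none reached a 2-fold change, log2 1, in either direction. With the replicate number as a block they reached from -0.688 to 0.504, and that of VPS24.1, 0.106 to 0.504, lay above 0. Quantile normalization within each system and centring on the array median each put 1 interval past 2-fold, that of VPS20.1, reaching -1.03 and -1.155. When limma was run on the 4 protoplast arrays without the seedlings, the intervals reached from -1.27 to 1.205, and 3 of the 17, those of EXO84B, SEC10 and VPS20.1, went past 2-fold. With 1 array left out, 2 to 4 did without a protoplast array and 0 or 1 without a seedling array. These are intervals of single genes on the deposited scale, and for SEC15A, VPS2.2 and VPS9B, near the lowest value in both groups, they measure nothing about the transcript.

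Among the exocyst genes, 4 of 6 tested, SEC15A near the bottom of the scale included, had a higher mean with 35S:ORE1. Of all tested probe sets 31.4% did, and of the 10136 measured in protoplasts 41.6%. All 4 turned lower when each array was centred on its median, so the count is a description. SEC5A read 8.08 and 8.06 with 35S:ORE1, against 8.04 and 7.75 in WT, a change of 0.17 ± 0.14 (SE, limma adjusted p = 1). Both 35S:ORE1 arrays lay above both WT arrays, by 0.04 within replicate 1 and 0.30 within replicate 2. EXO84B read 8.84 and 9.30 with 35S:ORE1 and 8.64 and 9.25 in WT (0.12 ± 0.24), and SEC10, which has a near-identical tandem copy from which its probe set may not tell it apart, read 6.90 and 6.39 with 35S:ORE1 and 6.83 and 6.26 in WT (0.10 ± 0.25). In both genes the arrays of a replicate number lay closer together than the arrays of a group, and the groups overlapped. SEC6 (0.10) and SEC15B (-0.02) overlapped too.

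SEC15A read 2.51 and 2.33 with 35S:ORE1 and 2.52 and 2.73 in WT, all near the bottom of the scale, and no change is drawn from these values. Of the 2 fusion genes, SEC1B, whose family binds syntaxins, read 9.14 and 9.27 with 35S:ORE1 and 9.13 and 9.27 in WT, a change of 0.00 ± 0.14. SEC22 read 10.10 and 10.51 with 35S:ORE1 and 10.10 and 10.44 in WT, a change of 0.04 ± 0.19. Neither fusion gene separated the groups.

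The ESCRT genes gave the largest protoplast changes of the 17, in both directions. VPS24.1, a core ESCRT-III subunit, read 9.50 and 9.84 with 35S:ORE1, against 9.28 and 9.45 in WT, a change of 0.30 ± 0.15 (SE, limma adjusted p = 0.565, 95% interval -0.06 to 0.67). Its groups did not overlap, with differences of 0.22 within replicate 1 and 0.39 within replicate 2. VPS2.1, its partner in the ESCRT-III filament, read 10.73 and 10.87 with 35S:ORE1, against 10.63 and 10.70 in WT, a change of 0.14 ± 0.13 with no overlap and 0.10 and 0.18 within the replicates.

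VPS20.1, the ESCRT-III subunit that links to ESCRT-II, was lower with 35S:ORE1 in 1 replicate only. It read 10.08 and 9.39 with 35S:ORE1, against 10.08 and 9.83 in WT, with exactly equal values in replicate 1 and -0.44 in replicate 2 (-0.22 ± 0.30). VPS60.2 read 9.40 and 9.60 with 35S:ORE1 and 9.20 and 9.60 in WT, the reverse arrangement, with equal values in replicate 2. The groups overlapped for VPS46.2 (0.01) and VPS60.1 (-0.04).

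Exactly equal values recur in these arrays and bear on every small protoplast change. VPS22 of ESCRT-II read 9.40 on both replicate 1 arrays and 9.33 on both replicate 2 arrays, equal to the last deposited digit. In each replicate number 6 of the 17 tested members were tied in this way, and 3 (VPS22, VPS2.2 and VPS9B) were tied in both, which is 17.6% of the tested members against 29.9% of all tested probe sets. Many of these ties lie at the bottom of the scale. Of the 14 members measured in protoplasts, VPS22 alone, 7.14%, was tied in both, against 5.51% of the 10136 probe sets that reached log2 5 on 2 protoplast arrays. In seedlings no member was tied. A tie gives a difference of exactly 0 within that replicate number, and its origin was not tested. Same-numbered protoplast arrays also share their lowest value, 2.19 for replicate 1 and 2.18 for replicate 2, so the number may stand for a processing batch, and the differences within each number are given for that reason.

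Of the 14 members measured in protoplasts, 3 (SEC5A, VPS2.1 and VPS24.1) had both 35S:ORE1 arrays above both WT arrays and none had both below. Of the 10136 probe sets measured there, 16.4% lay above and 20.6% below without overlap, and of all tested probe sets 10.8% and 12.6%. When each array was centred on its median, which moved all protoplast changes by about -0.17, 13 of these 14 had a lower mean, VPS24.1 being the exception. The protoplast array medians, 3.35 to 3.54, lie below all values of these 14, so the shift is set at the low end of the scale. Quantile normalization within each system kept SEC5A (0.124), EXO84B (0.107), SEC10 (0.078), VPS2.1 (0.114) and VPS60.2 (0.081) higher, while SEC1B went from 0.002 to -0.012. The direction of the small protoplast changes thus depends on whether the arrays are centred, and none passed the test under any of these scalings.

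**Figure D2:**
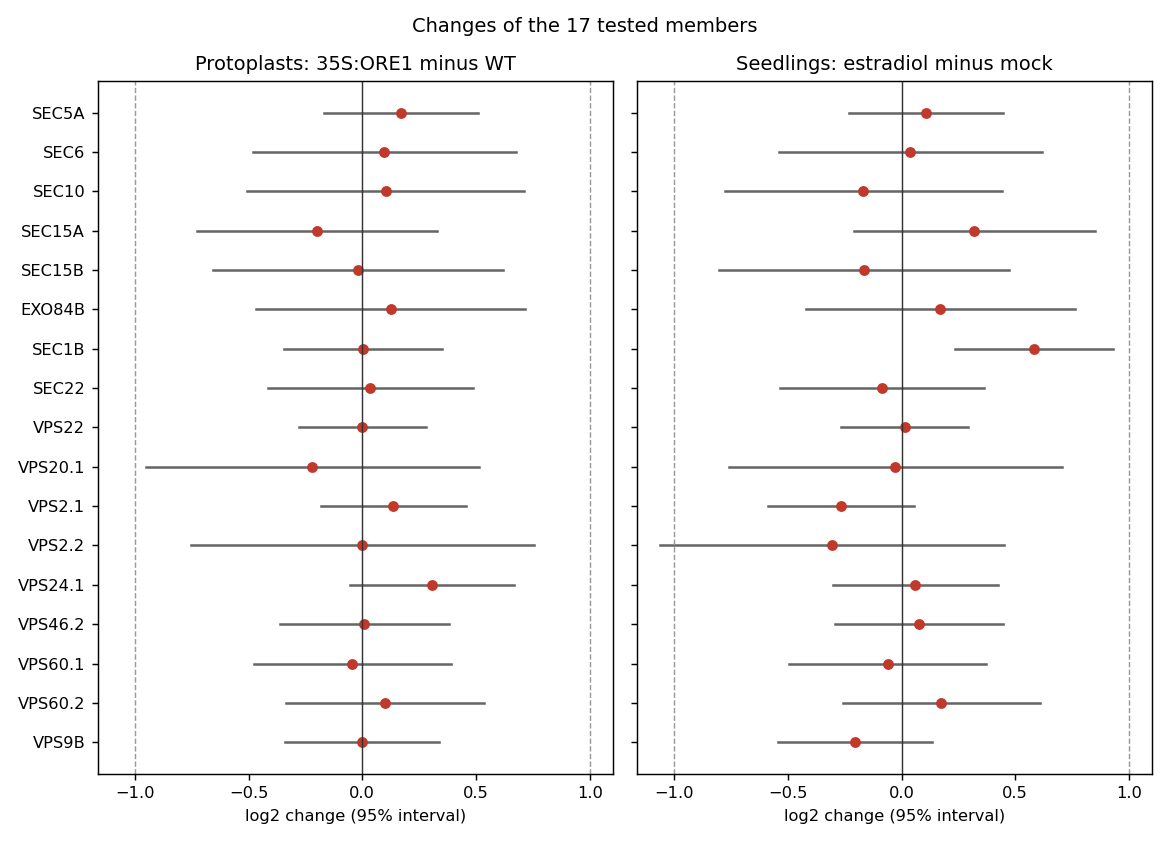
Log2 change (points) with its 95% interval from limma (bars) of the 17 tested members, for 35S:ORE1 minus WT protoplasts (left) and estradiol minus mock seedlings (right). Dashed lines mark a 2-fold change. The intervals hold 0 except that of SEC1B in seedlings, from 0.235 to 0.93, and only the seedling interval of VPS2.2 passes a dashed line.

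After 2 h of estradiol in seedlings, again none of the 17 tested genes passed the test over all probe sets. Of all tested probe sets 0.00575% passed, that is 1 of 17388. The members' median change was 0.01 on the log2 scale, against 0.02 for all tested probe sets, and 9 genes had a higher and 8 a lower mean. At an unadjusted p under 0.05 there was 1 member, SEC1B, where 4.13% of all tested probe sets lay under it.

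SEC1B had the largest seedling change of the 17. It read 7.96 and 8.21 with estradiol, against 7.43 and 7.58 in mock seedlings, so both estradiol arrays lay above both mock arrays. The change was 0.58 ± 0.14 (SE, limma adjusted p = 0.855, unadjusted p = 0.00609), or 1.5-fold, with a 95% interval from 0.235 to 0.93. It was 0.53 within replicate 1 and 0.63 within replicate 2. When limma was run on the 4 seedling arrays without the protoplasts, the interval was 0.18 to 0.99, with an adjusted p of 1. SEC1B belongs to the family of KEULE, the Sec1 protein known for its part in cell plate formation, and KEU itself, measured on another probe set, read 8.35 and 8.66 with estradiol against 8.63 and 8.88 in mock seedlings, a change of -0.25 ± 0.19.

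The other 16 changes in seedlings lay between -0.30 and 0.32. In the exocyst, SEC15A read 5.62 and 6.23 with estradiol against 5.54 and 5.68 in mock seedlings (0.32 ± 0.22), overlapping because only replicate 2 differed widely (0.09 and 0.55). EXO84B read 9.09 and 9.17 with estradiol, against 8.89 and 9.03 in mock seedlings, a change of 0.17 ± 0.24 without overlap. SEC10 read 8.36 and 8.35 with estradiol, against 8.66 and 8.39 in mock seedlings, a change of -0.17 ± 0.25, also without overlap. Exocyst genes therefore lay on both sides, 4 with a higher and 2 with a lower mean, where 54.0% of all tested probe sets had a higher mean.

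Among the VPS genes, VPS2.1 read 9.53 and 9.68 with estradiol, against 9.78 and 9.97 in mock seedlings, a change of -0.27 ± 0.13 (SE, limma adjusted p = 1), with -0.24 and -0.29 within the replicates. Both estradiol arrays lay below both mock arrays. VPS2.2 read 6.21 and 5.25 with estradiol and 6.24 and 5.84 in mock seedlings (-0.30 ± 0.31), a difference carried by replicate 2, and VPS9B read 6.01 and 5.72 with estradiol and 6.04 and 6.11 in mock seedlings (-0.21 ± 0.14). The interval of VPS2.2 reached -1.06, the only one of the 17 seedling intervals past 2-fold. That count was 0 with the replicate number as a block, 6 without estradiol replicate 1 or mock replicate 2, and 4 without estradiol replicate 2 or mock replicate 1. VPS60.2 read 7.65 and 7.70 with estradiol, against 7.37 and 7.63 in mock seedlings (0.17 ± 0.18), with no overlap.

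VPS22 had the smallest seedling change of the 17, at 8.59 and 8.71 with estradiol and 8.59 and 8.69 in mock seedlings (0.01 ± 0.11). VPS24.1, the largest protoplast change, read 8.47 and 8.46 with estradiol and 8.42 and 8.38 in mock seedlings (0.06 ± 0.15). Of the 2 untested genes, SEC5B read 4.74 and 4.71 with estradiol and 5.01 and 4.97 in mock seedlings, and VPS24.2 averaged 4.27 ± 0.045 with estradiol and 4.09 ± 0.027 in mock seedlings (SD, n = 2 each). Among the 17 tested, 5 lay above without overlap with estradiol (SEC1B, SEC5A, EXO84B, VPS24.1 and VPS60.2) and 4 below (SEC10, SEC22, VPS2.1 and VPS9B). Of all tested probe sets 18.6% lay above and 13.9% below.

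**Figure D3:**
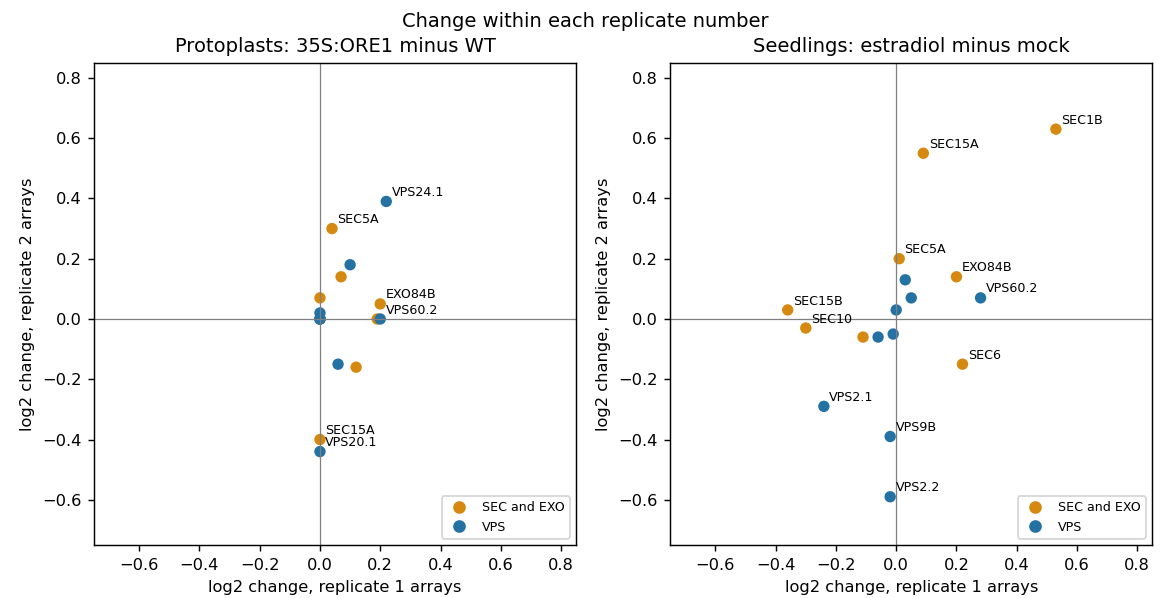
Log2 change within replicate 1 (horizontal axis) and within replicate 2 (vertical axis) for the 17 tested members, in protoplasts (left) and seedlings (right), with SEC and EXO genes in orange and VPS genes in blue and names where either change reaches 0.2. Many protoplast points lie on an axis because the 2 arrays of a number have equal values, and SEC1B in seedlings (0.53 and 0.63) lies far from 0 in both replicates.

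Whether a member's change differed between the systems was tested as the protoplast change minus the seedling change, and none of the 17 passed, where 1.62% of all tested probe sets did (limma). At an unadjusted p under 0.05 there was 1 member, where 8.78% of all tested probe sets lay under it. That member was SEC1B, at -0.58 ± 0.20 (SE, limma adjusted p = 0.421, 95% interval -1.07 to -0.09). VPS2.1 differed by 0.40 ± 0.19 (limma adjusted p = 0.669), higher in both replicates of protoplasts and lower in both of seedlings. With each array centred on its median, VPS2.1 changed by -0.036 in protoplasts and -0.293 in seedlings, a difference of 0.257. Its opposite directions thus depend on the scaling. No difference is given for SEC15A, VPS2.2 and VPS9B, which were not measured in protoplasts though they count among the 17. The systems differ in tissue, age, time, the way ORE1 was raised, the processing of the arrays and the scale of the values. These cannot be told apart. In bulk RNA, fewer cells of a type and less RNA per cell cannot be told apart either.

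Other genes of vesicle traffic were taken from 9 lists of machinery under other names, of which 7 had members on a probe set with 1 symbol, 28 genes in all and 27 tested. In protoplasts 1 of the 27 passed, upward, which is 3.7% against the 3.77% of all tested probe sets, and none did in seedlings. Of the 10136 probe sets at log2 5 or more on 2 protoplast arrays 6.02% passed in protoplasts. The lists were chosen with earlier results of these data known, so these shares are descriptions only. The gene that passed was ARLA1A, an ARF-like GTPase whose animal relative ARL8 is known for positioning lysosomes. It read 9.26 and 9.41 with 35S:ORE1, against 6.82 and 6.75 in WT, and rose by 2.55 ± 0.25 (SE, limma adjusted p = 0.00319), 5.87-fold. The rise was 2.45 within replicate 1 and 2.66 within replicate 2.

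In seedlings ARLA1A read 8.65 and 7.90 with estradiol and 8.42 and 8.18 in mock seedlings, a change of -0.03 ± 0.25, and the difference between the systems passed at 2.58 ± 0.35 (limma adjusted p = 0.0231). That call was lost without each protoplast array and without each mock array in turn (adjusted p = 0.0628 to 0.160), with a difference of 2.46 to 2.70. Its 3 relatives did not pass in protoplasts. ARLA1B read 2.18 to 2.19 throughout, the bottom of the scale, ARLA1C read 6.82 and 7.49 in both with exact ties, and ARLA1D read 7.49 and 7.55 with 35S:ORE1 against 7.14 and 7.55 in WT. These 4 ARF-like genes were all that the list of budding GTPases and their exchange factors yielded. It gave no SAR gene, no ARF gene and no exchange factor, so it does not describe that machinery.

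**Figure D4:**
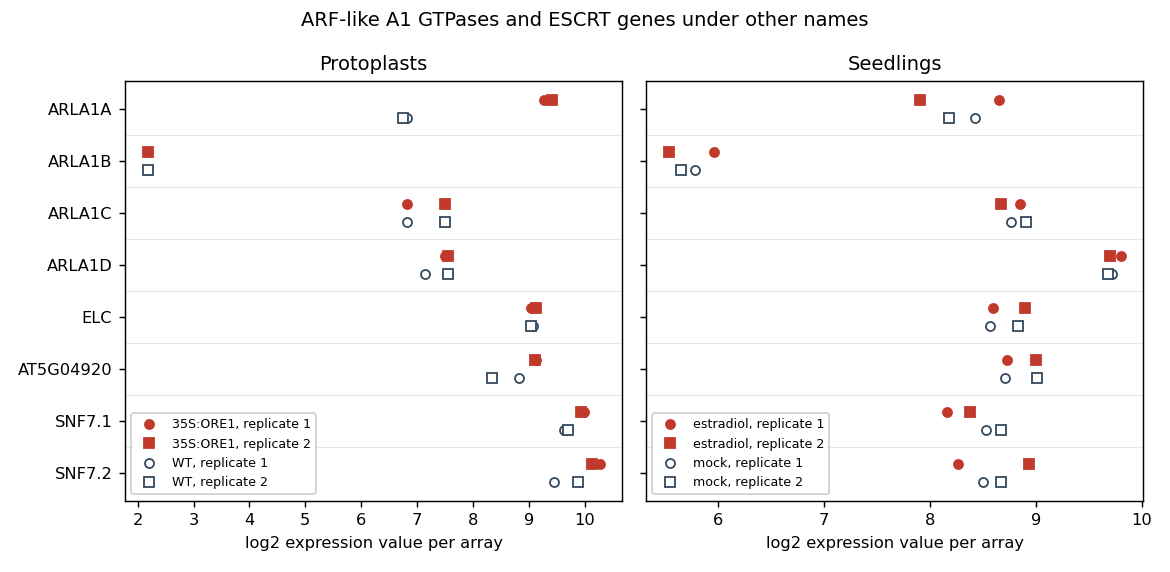
Log2 expression value per array of the 4 ARF-like A1 GTPase genes and of 4 ESCRT genes under other names (AT5G04920 has the synonym VPS36), with symbols as in the plot of the members' values. ARLA1A lies at 9.26 and 9.41 with 35S:ORE1 and at 6.82 and 6.75 in WT protoplasts, a gap that the other 7 genes do not show.

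The ESCRT list under other names adds the SNF7 genes, which encode the main filament subunit of ESCRT-III, and ELC, an ESCRT-I gene. None of the 3 passed. SNF7.1 read 9.98 and 9.93 with 35S:ORE1, against 9.62 and 9.69 in WT, a change of 0.30 ± 0.13 (SE, limma adjusted p = 0.444). SNF7.2 read 10.26 and 10.12 with 35S:ORE1, against 9.44 and 9.87 in WT, a change of 0.54 ± 0.255 (adjusted p = 0.537). Both lay above WT without overlap, as 16.4% of the probe sets measured in protoplasts did, while ELC overlapped (0.04).

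In seedlings SNF7.1 read 8.16 and 8.38 with estradiol, against 8.53 and 8.67 in mock seedlings, a change of -0.33 ± 0.13 (SE, limma adjusted p = 1), lower without overlap, as 13.9% of all tested probe sets were. Its difference between systems was 0.63 ± 0.18 (adjusted p = 0.277). SNF7.2 overlapped between the seedling groups (0.005). Genes whose synonyms alone match the rule were looked up after the probe table had been seen, and none of the 4 tested passed in either system. AT5G04920, with the synonym VPS36, the name of an ESCRT-II partner of VPS22, differed by 0.54 ± 0.21 in protoplasts (limma adjusted p = 0.351) and by 0.00 in seedlings. AtSec20 differed by 0.31 and 0.03, AT3G63460, with the synonym SEC31B, by 0.08 and 0.28, and AT2G36680, with the synonym VPS37-2, by 0.00 with exact ties and by -0.10.

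In the remaining lists no gene passed in either system. The 9 tested COPI coat genes had differences of -0.09 to 0.31 in protoplasts and of -0.34 to 0.10 in seedlings, with medians of 0.00 and -0.055. In protoplasts 3 (AT2G34840, AT1G62020 and AT1G30630) lay above without overlap and 0 below, where 16.4% and 20.6% of probe sets measured there did. In seedlings 3 (AT1G30630, AT1G62020 and AT1G52360) lay below and 1 above, against 13.9% and 18.6% of all tested. The lowest was AT1G30630, at -0.34 ± 0.14 (SE, limma unadjusted p = 0.0484). The 3 Rab list genes had a protoplast median of 0.18 and a seedling median of -0.13. That list holds ARA6, RAB6A and AT2G28390, which has the synonym MON1 and gave the largest of the 3 changes, 0.32 ± 0.12 (limma adjusted p = 0.349). Of the 3 SNARE and fusion genes under other names, KEU and YKT61 had differences of 0.10 and 0.20 in protoplasts, where ATYKT62 lay at the lowest value, and YKT61 and ATYKT62 had 0.04 and 0.09 in seedlings. The 2 tethers, CLUB and MAG2, had medians of 0.27 and 0.05, and the 3 subunit a genes of the vacuolar proton pump, VHA-A1, VHA-A2 and VHA-A3, had medians of 0.02 and 0.005. The lists for vacuolar sorting receptors and for clathrin with its adaptors had no member with a listed probe set of its own.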

How the data were processed

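The deposited table holds log2 expression values per probe set (22810 on 8 arrays). Per the submitters' processing notes GCRMA and RMA were used, without versions or roles. The values were used as deposited. Symbols came from the platform's probe table, where 13513 probe sets have 1 symbol and 503 several, and all 19 members matched a locus tag of the reference gene table.

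Probe sets other than controls that reached log2 5 on at least 2 arrays (17388) were fitted in limma 3.58.1 under R 4.3.3 with 1 mean per group and no block (4 residual degrees of freedom, prior 2.25; two-sided, Benjamini-Hochberg over all tested). An SE is thus shared by both systems. The fit was also run on simulated data with independent noise on each array. These lack the ties and the shared deviations of same-numbered arrays, so they cannot show how the fit fares with those. A protoplast value within 0.1 of its array's lowest counts as lying there. Deviations of same-numbered arrays correlated at 0.787 in protoplasts and 0.656 in seedlings, over 2 pairs each.

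The members and lists were chosen with earlier results of these data known. Of the members, those with the 4 largest changes per class and system were given in full, and others by range or briefly. From the lists, called genes and up to 3 with the smallest p were named, but all 4 ARLA1 genes were given. CHC1 of the probe table carries the synonym BAF60, so it was not counted as clathrin. Alternatives were a replicate block, quantile normalization, median centring, other filters, a trend in the spread, fits per system and leaving out each array. Promoter and protein sequences were not used here.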

Additional observations from a re-analysis of the deposited data

Results flagged for a closer look

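Protoplast and seedling values lie on different scales, and scale, tissue, age, time and the way ORE1 was raised cannot be told apart between the systems. Within that limit, ARLA1A, a related gene outside the SEC, EXO and VPS names, passed the test of a difference between the systems. Its protoplast change minus seedling change was 2.58 ± 0.35 in log2 units (limma test of the difference, adjusted p = 0.0231, n = 2 arrays per group). Its protoplast rise passed in all 15 alternatives tried (2.38 to 2.62, adjusted p = 0.00171 to 0.0260), and its difference between systems in 8 of 14.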

How the results depend on the processing

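No member was called in protoplasts or in seedlings under any of the 15 alternatives, nor in the difference between systems under the 14 that could be run for it, each a count of 0. With the replicate number as a block, as in a paired analysis, the lowest adjusted p values were 0.108 for VPS24.1 in protoplasts, 0.217 for SEC1B in seedlings and 0.0708 for SEC1B in the difference. Of 279 recomputed changes of named members, 267 kept their direction and 12 reversed. The block, the filters, the trend and the fits per system cannot move a change. For a change within a system, neither can leaving out an array of the other system. Many of the 267 were therefore fixed in advance, and their count does not measure stability. All 12 reversals came with centring or with an array left out. Centring on the array median turned the protoplast changes of SEC5A to -0.002, EXO84B to -0.049, SEC10 to -0.071, VPS2.1 to -0.036 and VPS60.2 to -0.074. Quantile normalization within each system left all of these positive. Leaving out 1 array reversed protoplast changes of EXO84B (-0.181 to 0.429 over the 4 protoplast arrays), SEC10 (-0.183 to 0.388), VPS20.1 (-0.567 to 0.128) and VPS60.2 (-0.098 to 0.297). Of the members' seedling changes it reversed that of VPS2.2 (-0.785 to 0.176). The seedling change of ARLA1A, which is no member and is not counted in the 279 or the 12, reversed too (-0.398 to 0.346). The change of SEC1B in seedlings lay between 0.46 and 0.71 throughout. Over all probe sets, calls in protoplasts numbered 656, but 1343 with the block, 145 in the fit to protoplast arrays alone, 407 without WT replicate 1 and 376 without WT replicate 2. In the difference between systems there were 281, but 487 with the block and 130 to 153 without 1 of the seedling arrays. In seedlings the single call was lost in 11 alternatives. The cause was not tested. No member has several probe sets, so a choice between them gave no value. The 2 arrays of a group set the limit on precision.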
